A study of Sus scrofa with 4 samples.

Results

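Reactive oxygen species are removed in cells by enzymes that work in series. Superoxide dismutases turn superoxide into hydrogen peroxide. Catalase, the glutathione peroxidases and the peroxiredoxins then break the peroxide down, and the last 2 draw their electrons from glutathione and thioredoxin, which are kept reduced at the expense of NADPH. The transcription factor NFE2L2 switches on many of these genes and is held back by KEAP1, and some of the enzymes carry selenocysteine, whose insertion needs SECISBP2. In preimplantation embryos these systems limit oxidative damage, and free fatty acids are a known source of such stress when they are oxidised. The genes described here were chosen by symbol in the platform's annotation, with a pattern for glutathione, thioredoxin, peroxide, superoxide, methionine sulfoxide, quinone, heme, NFE2L2 and selenium genes. It took 55 genes of the 10024 named on the array, with 80 of the 13146 named probes, and each of the 55 matched an entry of the present RefSeq pig table.

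The samples were porcine (Sus scrofa) blastocysts, embryos in which an outer trophectoderm surrounds an inner cell mass. In the NEFA group the oocyte had met high non-esterified fatty acids (NEFAs), and in the control group it had not. No breed, dose or culture time is given in the sources used here. According to the design text, 10 blastocysts made up each of 4 pools. It is not clear whether this means 4 pools in each group or 4 in all, so different channels may hold the same pool. Collection fell on days 7 and 8, and no pool is tied to a day. Each of 4 two-colour arrays carried amplified RNA of the NEFA group in one channel and of the control group in the other, with NEFA in Cy3 on arrays 1 and 2 and in Cy5 on arrays 3 and 4, and the channels are treated here as 8 pools, 4 in each group. The labels call the arrays biological replicates without naming separate cultures, so every p-value reflects the spread among these 4 arrays, which may be technical. The number of arrays, 4, limits the precision of every value.

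All ratios below are log2 values of NEFA over control, after background correction and normalisation within each array. Values with ± are the limma estimate with its SE over 4 arrays unless an SD is named. Values without an array come from the same fit, which also estimates a dye effect, and a median without an array is taken over such values. Both dye orientations count equally there, so the array left alone in its orientation weighs as much as the other 2 together. Such a value is not the plain mean of the remaining arrays. A probe counted as above background in a pool where its intensity lay over 2 SD above the average negative control spot of that array and channel. Probes above background in at least 3 of 4 pools of 1 group were tested. A level is the normalised log2 intensity of 1 probe, and it is compared only with the same probe in other pools. Each gene is given by its brightest tested probe, and in a pool of whole embryos fewer cells of a type and less RNA per cell cannot be told apart.

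The 4 arrays did not repeat one another. Over the tested probes, the ratios of arrays 2 and 4 were correlated at r = -0.538, those of arrays 1 and 3 at r = -0.286 and those of arrays 1 and 2, which have the same dye orientation, at r = -0.240. The pairs 3 and 4, 1 and 4, and 2 and 3 stood at 0.158, 0.152 and 0.0138. These correlations are across probes of shared arrays, and probes are not independent replicates. Arrays 2 and 4 are of opposite dye orientation, so their Cy5 over Cy3 ratios were correlated at 0.538 before the sign was turned for the labelled swap. Every direction below rests on the orientations given in the labels. In the antioxidant genes the same opposition was visible: 28 of the 41 measured genes had opposite signs on arrays 2 and 4 (r = -0.358 over genes). Array 1 had 13 of the 41 genes above 0, array 2 had 26, array 3 had 19 and array 4 had 18. Among all tested probes the shares above 0 were 46.0%, 47.7%, 52.2% and 50.6%. Array 1 therefore held more of these genes below 0, and array 2 more above 0, than all tested probes, which include unnamed probes and several of 1 gene. Over the 4705 named genes, taken by 1 probe each like the 41, the medians on arrays 1 and 2 were -0.06 and -0.004. Those of the 41 genes were -0.17 and 0.08. Differences past 1.5-fold were found for 12 of the 41 genes on array 1 (29.3%), 4 on array 2 (9.76%), 2 on array 3 (4.88%) and 10 on array 4 (24.4%). Among all tested probes the shares past 1.5-fold were 17.7%, 16.1%, 5.07% and 25.1%.

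**Figure D1:**
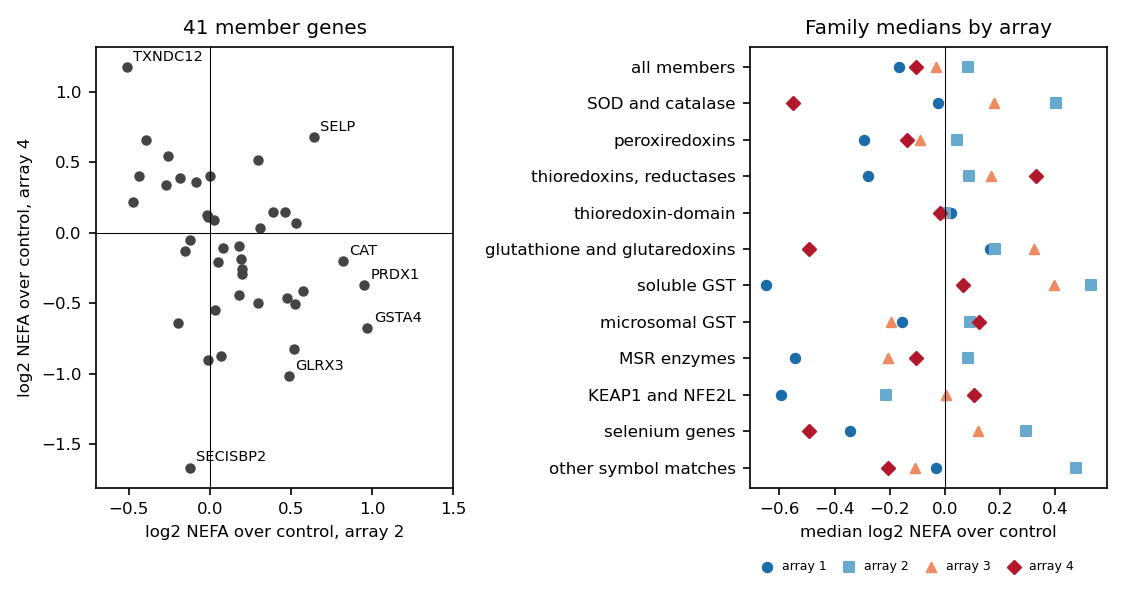
Left, log2 NEFA over control of the 41 measured antioxidant genes on array 2 (x axis) and array 4 (y axis), 1 point per gene. Right, the median log2 ratio of each family with over 1 measured gene on each array (x axis). Of the 41 genes, 28 had opposite signs on arrays 2 and 4, and the array medians of every family shown lay on either side of 0.

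Transcripts of thiol-based peroxide defence were readily detected in these blastocysts. Of the 80 probes, 48 were above background in all 8 pools (60.0%), 18 in 1 to 7 pools and 14 in none (17.5%). Among all named probes 28.5% were above background in 8 pools and 26.0% in none. All 9 probes of the 6 peroxiredoxins PRDX1 to PRDX6 and both microsomal glutathione transferases were detected in 8 of 8 pools, as were 9 of 11 probes for glutathione synthesis, its reduction and the glutaredoxins. Of 6 probes for thioredoxins and their reductases, 5 were detected in 8 pools, and TXNRD2, the mitochondrial reductase, in none.

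The selenium-dependent glutathione peroxidases stood at the other end. GPX2, known from the gut epithelium, was above background in 0 of 8 pools, and GPX3, the secreted form, in 1 of 8, a control pool. No other glutathione peroxidase had a probe under its symbol among the named probes, so this family could not be tested. GCLC, the catalytic subunit that limits glutathione synthesis, NFE2L1, a relative of NFE2L2 that controls proteasome genes, GSTT1 and GSTCD were also above background in 0 of 8 pools. NQO1, a quinone reductase that is a classical target of NFE2L2, had 2 probes, each above background in 1 NEFA and 1 control pool. In all, 14 genes with 18 probes had no tested probe, 11 of those probes being above background in no pool. A probe not above background does not show that the transcript is absent.

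**Figure D2:**
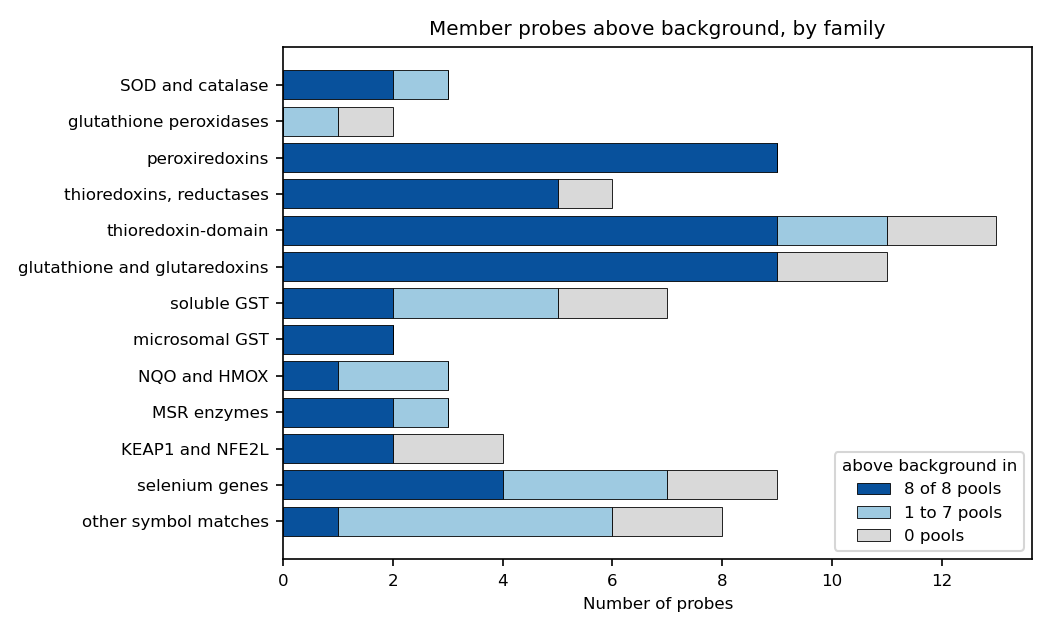
Number of probes (x axis) of each family, divided by how many of the 8 pools (4 NEFA, 4 control) they exceeded the negative-control limit in. All 9 peroxiredoxin probes were above background in 8 pools, and neither glutathione peroxidase probe was.

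Between blastocysts of NEFA-exposed and control oocytes, no antioxidant, glutathione or thioredoxin transcript passed the test. The limma fit called 0 of 56 member probes at an adjusted p of 0.05, as it called 0 of all 17145 tested probes (0%), and every adjusted p was 1.00 after rounding. At an unadjusted p under 0.05, 0 member probes were higher against 0.595% of all probes, and 1 was lower, SECISBP2, against 0.945%. The median over the 41 genes was -0.02, with 17 genes above 0 and 24 below. Over all 4705 named genes that were measured the median was -0.01, with 2167 above and 2538 below. The median of the 41 genes on arrays 1 to 4 was -0.17, 0.08, -0.03 and -0.10. Leaving out array 2 moved the 4-array median to -0.14, and leaving out array 1 turned it to 0.03.

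The intervals give a range for each difference on the normalised scale, provided that the arrays are independent and their labelled dye orientations right. Background correction pulled ratios of dim probes toward 0, so for these the true difference may lie outside the interval. For 40 of the 41 genes the 95% interval of the difference held 0, and for 40 it lay within 2-fold in either direction. For 22 genes it lay within 1.5-fold. Apart from SECISBP2, the estimate furthest from 0 among the brightest probes of the 41 genes was that of CAT, at 1.21-fold (0.275). Less bright tested probes of PRDX3, GLRX3 and PRDX5 lay further from 0, at -0.327, -0.287 and -0.280. The SD over the 4 arrays exceeded the size of the mean in 40 of the 41 genes, SELENBP1 being the exception, and ran from 0.14 to 0.87 with a median of 0.41.

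**Figure D3:**
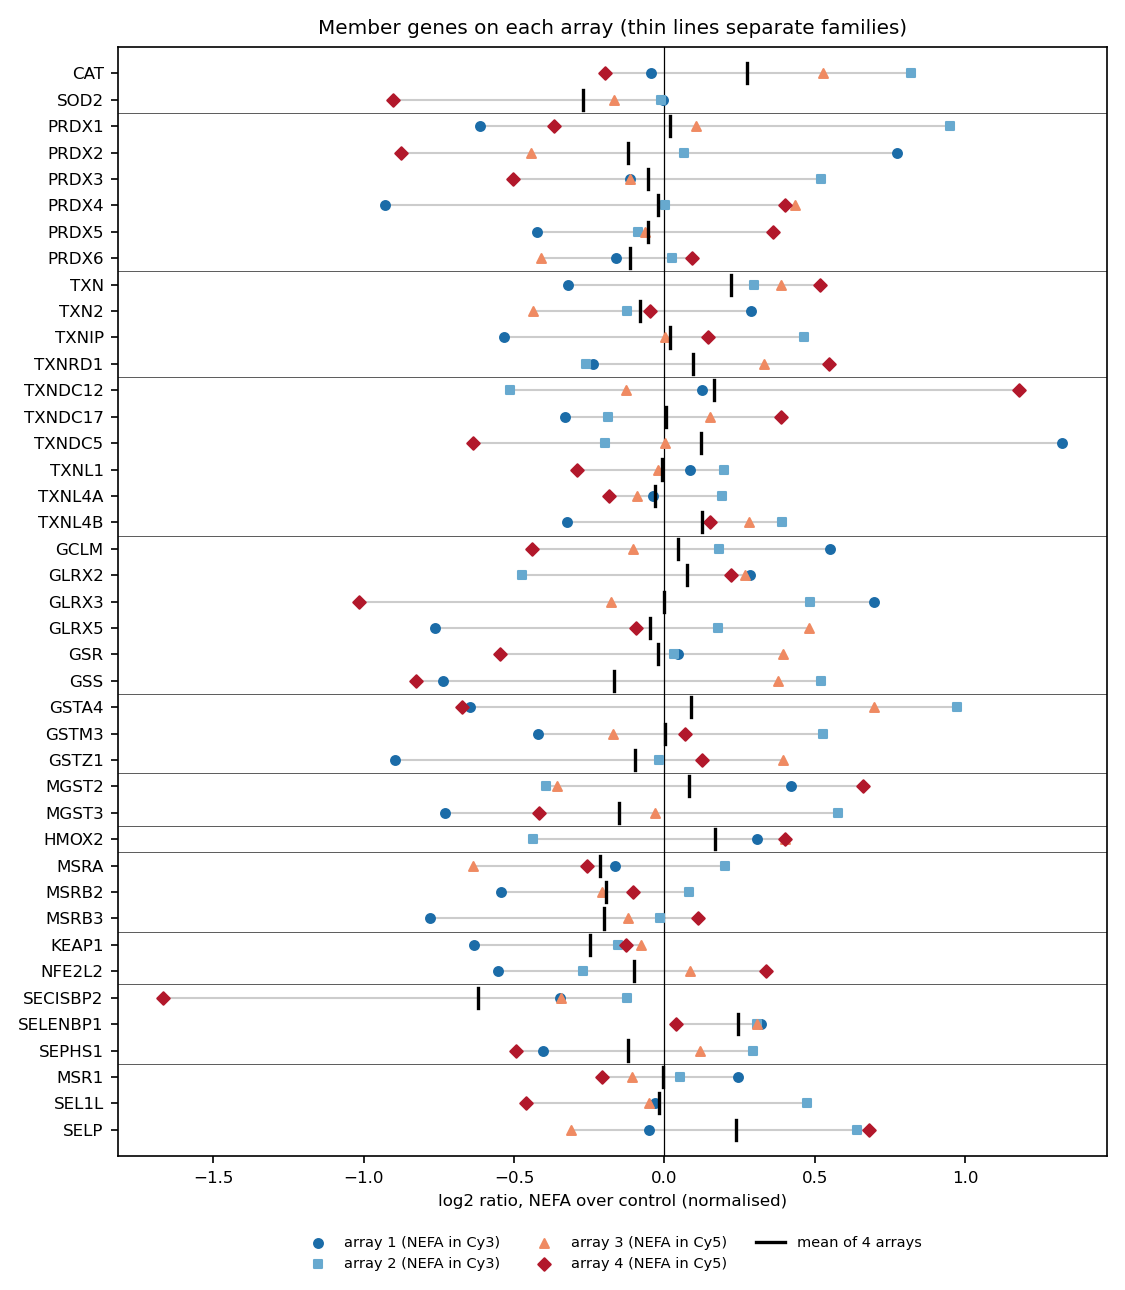
Log2 ratio of NEFA over control (x axis) for each of the 41 measured genes on each of the 4 arrays, with the mean as a black bar and thin lines between families. Only 4 genes (SOD2, KEAP1, SECISBP2 and SELENBP1) have 1 sign on all 4 arrays, and SECISBP2 has its lowest value, -1.67, on array 4.

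Of the superoxide dismutases and catalase, SOD2 and CAT were measured, with mean ratios of opposite sign and 95% intervals that both held 0. SOD1 had no probe under its symbol among the named probes. SOD2, the mitochondrial superoxide dismutase, had levels of 14.27, 13.75, 14.03 and 13.46 in the NEFA pools of arrays 1 to 4 and of 14.27, 13.76, 14.19 and 14.36 in the control pools. The groups overlapped, and only array 4 showed a wide gap. Its ratios were -0.01, -0.01, -0.17 and -0.90, which gave -0.27 ± 0.17 (unadjusted p = 0.167 in limma, adjusted p = 1.00). All 4 signs were negative, but 2 of the ratios were close to 0, and the value was -0.09 without array 4. In the authors' deposited ratios SOD2 stood at 0.06 and 0.17 on arrays 1 and 2 and at -0.25 and -1.08 on arrays 3 and 4. Its single sign therefore depended on the processing. CAT, the peroxisomal catalase, had NEFA levels of 12.13, 12.06, 12.26 and 11.60 and control levels of 12.18, 11.25, 11.73 and 11.80. Here the NEFA pools were higher on arrays 2 and 3 and lower on the other two. The ratios of -0.05, 0.82, 0.53 and -0.20 gave 0.28 ± 0.21 (unadjusted p = 0.248 in limma), and 0.06 without array 2. A second CAT probe was above background in 2 NEFA pools and 1 control pool and was not tested.

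The peroxiredoxins, which reduce peroxides with electrons from thioredoxin, lay near 0 on average and varied widely between arrays. Of the 6 genes, 5 were below 0, within a range of -0.12 to 0.02, and the family median was -0.05. That median was 0.068 without array 1 and -0.19 without array 2. PRDX1, an abundant cytosolic form, had ratios of -0.61, 0.95, 0.11 and -0.37, so that a difference of nearly 2-fold toward NEFA on array 2 faced one of the opposite sign on array 1. Its estimate was 0.02 ± 0.28 (unadjusted p = 0.948 in limma), at 0.41 without array 1 and -0.37 without array 2. PRDX4, the form of the endoplasmic reticulum, stood at -0.93 on array 1 and at 0.00, 0.44 and 0.40 on the others. PRDX2, another cytosolic form, stood at 0.77 and 0.07 on arrays 1 and 2 and at -0.44 and -0.87 on arrays 3 and 4. The sign split by dye orientation, with a dye term of -0.54. The second tested probe of PRDX2 stood at -0.21, 0.20, -0.01 and -0.22, and its signs did not split in this way. PRDX3, the mitochondrial form, had 2 tested probes, at -0.05 and -0.33, and PRDX5, found in mitochondria and peroxisomes, had 2 at -0.05 and -0.28. Probes of 1 gene had the same sign here but differed in size by several times. PRDX6, which works with glutathione in place of thioredoxin, had ratios of -0.16, 0.03, -0.41 and 0.09, giving -0.11 ± 0.15 (unadjusted p = 0.492 in limma).

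The thioredoxin system supplies those electrons. TXN, the cytosolic thioredoxin, had NEFA levels of 12.24, 12.29, 12.64 and 12.84 and control levels of 12.56, 11.99, 12.25 and 12.32. NEFA was higher on arrays 2, 3 and 4 and lower on array 1. The ratios of -0.32, 0.30, 0.39 and 0.52 gave 0.22 ± 0.16 (unadjusted p = 0.226 in limma, adjusted p = 1.00), at 0.07 without array 2 and 0.37 without array 1. TXNRD1, the selenocysteine enzyme that reduces TXN with NADPH, had ratios of -0.24, -0.26, 0.33 and 0.55. Its sign split by dye, and the estimate was 0.10 ± 0.14 (unadjusted p = 0.512 in limma). TXN2, the mitochondrial thioredoxin, was at -0.08 and TXNIP, which binds and inhibits thioredoxin, at 0.02. TXNIP was -0.53 on array 1 and 0.46 on array 2, so its mean covers opposite ratios.

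Proteins with a thioredoxin fold but other tasks had a family median of 0.06, with 4 of 6 genes above 0. Widest were 2 oxidoreductases of the endoplasmic reticulum. TXNDC5 stood at 1.32 on array 1 and at -0.20, 0.00 and -0.64 on the others, with a mean of 0.12. Its fit without array 1 gave -0.26. TXNDC12 stood at 1.18 on array 4 and at 0.12, -0.51 and -0.13 on arrays 1 to 3, with a mean of 0.17. Its fit without array 4 gave -0.16. Each mean therefore rested on 1 array. TXNDC17, a cytosolic oxidoreductase, was at 0.01 and TXNL1, which associates with the proteasome, at -0.01. TXNL4A and TXNL4B, which belong to the splicing machinery despite their names, were at -0.03 and 0.12. TXNL4B had ratios of -0.32, 0.39, 0.28 and 0.15 and the smallest unadjusted p of the family (0.12 ± 0.17, unadjusted p = 0.494 in limma). The fit without array 2 gave -0.05, with array 1 alone representing its dye orientation. TXNDC11 and TXNDC8, the second known from spermatids, were not tested.

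For glutathione itself, 4 of 6 genes were below 0 and the family median was -0.01. Leaving out array 3 moved that median to -0.20, and leaving out array 4 turned it to 0.13. GCLM, the modifier subunit of the enzyme that starts glutathione synthesis, had ratios of 0.55, 0.18, -0.11 and -0.44, again split by dye, and an estimate of 0.05 ± 0.15 (unadjusted p = 0.77 in limma). GSS, which completes the synthesis, was at -0.74 and -0.83 on arrays 1 and 4 and at 0.52 and 0.38 on arrays 2 and 3. Its estimate was -0.17 ± 0.29 (unadjusted p = 0.587 in limma), and the fit gave 0.15 without array 1 and -0.48 without array 2. GSR, which returns oxidised glutathione to its reduced form, was at 0.04, 0.03, 0.39 and -0.55, with an estimate of -0.02 ± 0.19 (unadjusted p = 0.922 in limma). Among the glutaredoxins, which reduce mixed disulfides or carry iron-sulfur clusters, GLRX3 had the strongest dye term, -0.59, with ratios of 0.70, 0.48, -0.18 and -1.02. Its 3 tested probes were at -0.00, -0.18 and -0.29, and the signs of the other two did not split by dye. GLRX2 and GLRX5, both mitochondrial, were at 0.07 and -0.05.

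The glutathione transferases conjugate glutathione to electrophiles, including aldehydes made when lipids are oxidised. GSTA4, which acts on such an aldehyde, 4-hydroxynonenal, had the largest SD of the 41 genes, 0.87. Its NEFA levels were 10.57, 11.05, 10.99 and 10.65 and its control levels 11.22, 10.08, 10.30 and 11.33. The NEFA pools lay close together between the extremes of the control pools. The ratios of -0.65, 0.97, 0.70 and -0.67 averaged 0.09. The fit gave 0.49 without array 1 and -0.32 without array 2, which are not plain means of the remaining ratios. GSTM3 was at 0.00 with its other tested probe at -0.19. GSTZ1, an isomerase of tyrosine breakdown, had ratios of -0.90, -0.02, 0.39 and 0.13, with an estimate of -0.10 ± 0.19 (unadjusted p = 0.624 in limma). It was above background in 3 pools of each group. Of the microsomal forms, MGST2 was at 0.08 and MGST3 at -0.15 ± 0.24 (unadjusted p = 0.558 in limma). On arrays 1, 2 and 4 their ratios had opposite signs, with MGST2 at 0.42, -0.39 and 0.66 and MGST3 at -0.73, 0.58 and -0.42.

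The 3 measured enzymes that repair oxidised methionine had means below 0. MSRA, which reduces the S form of methionine sulfoxide, had ratios of -0.17, 0.20, -0.63 and -0.26 and an estimate of -0.21 ± 0.15 (unadjusted p = 0.216 in limma). MSRB2, the mitochondrial enzyme for the R form, stood at -0.54, 0.08, -0.21 and -0.10, with a mean of -0.19. Its fit without array 1 gave -0.037. MSRB3, a relative found in the endoplasmic reticulum and mitochondria, stood at -0.78, -0.01, -0.12 and 0.11, with a mean of -0.20. MSRB3 was above background in 1 NEFA pool and 3 control pools, so it was tested only through the group in which it was higher, and its sign is no evidence of a difference. No member passed. HMOX2, the constitutive heme oxygenase, had ratios of 0.31, -0.44, 0.40 and 0.40, with an estimate of 0.17 ± 0.17 (unadjusted p = 0.369 in limma). It was higher on 3 of 4 arrays. The fit without array 1 gave -0.02, although arrays 3 and 4 both stood at 0.40, because array 2 alone then represented its dye orientation. HMOX1 had no probe under its symbol among the named probes.

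The regulators of the response were both below 0. KEAP1, which brings NFE2L2 to a ubiquitin ligase, had NEFA levels of 8.22, 8.70, 8.72 and 8.65 and control levels of 8.85, 8.86, 8.80 and 8.78. Every NEFA pool lay below every control pool. It was the only member probe of which this held, 1 of 56 or 1.79%, against 1.17% of all tested probes. The ratios of -0.63, -0.15, -0.08 and -0.13 gave -0.25 ± 0.15 (unadjusted p = 0.153 in limma, adjusted p = 1.00). On arrays 2 to 4 the gap was small, and the value was -0.13 without array 1. NFE2L2 had 2 probes, 1 of them above background in no pool. The other had ratios of -0.55, -0.27, 0.09 and 0.34, negative with NEFA in Cy3 and positive with NEFA in Cy5, and an estimate of -0.10 ± 0.14 (unadjusted p = 0.516 in limma).

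Of the genes that handle selenium, SECISBP2 was the member furthest from 0. Its protein binds the hairpin in selenoprotein transcripts that recodes UGA as selenocysteine. Probe EMPV1_08233 had NEFA levels of 9.25, 8.70, 8.99 and 8.23 and control levels of 9.59, 8.82, 9.33 and 9.90. NEFA was lower on every array, yet the groups overlapped, and array 4 held both the lowest NEFA and the highest control level. The ratios of -0.35, -0.12, -0.34 and -1.67 gave -0.62 ± 0.24 (unadjusted p = 0.0433 in limma, adjusted p = 1.00). The mean was -0.23 over the arrays with NEFA in Cy3 and -1.01 over those with NEFA in Cy5, and the estimate was -0.29 without array 4.

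A second tested probe of SECISBP2, EMPV1_15078, gave a like pattern. Its NEFA levels were 8.98, 8.20, 8.75 and 8.16 and its control levels 9.24, 8.40, 8.98 and 9.03. The ratios were -0.26, -0.21, -0.23 and -0.88, again with array 4 the lowest, and the estimate was -0.39 ± 0.16 (unadjusted p = 0.0565 in limma, adjusted p = 1.00). The probes share their RNA pools and are not replicates of the comparison. The gene's other two probes were above background in 0 and 3 of 8 pools and were not tested. Their ratios were -0.44, 0.04, -0.16 and -0.19 for the first and 0.23, 0.07, -0.34 and -0.12 for the second. The paralogue SECISBP2L had 2 probes, above background in 0 and 1 of 8 pools.

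**Figure D4:**
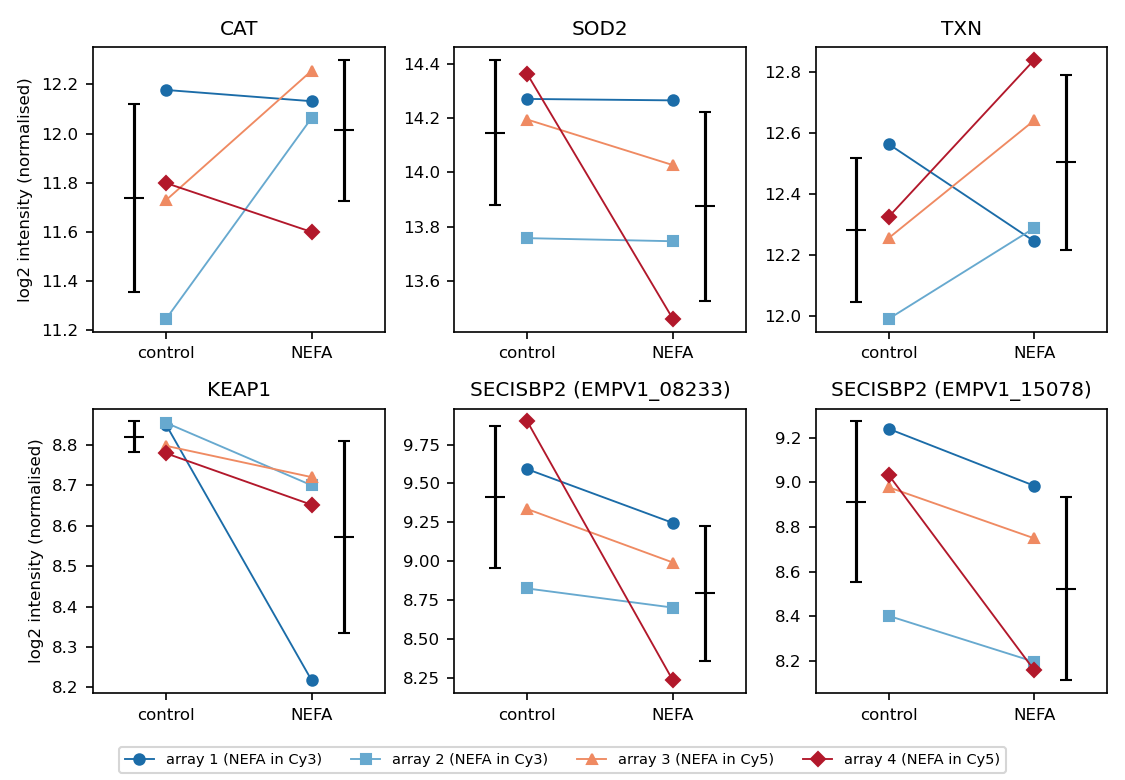
Normalised log2 intensity (y axis, own scale in each panel) in the control and NEFA pools for CAT, SOD2, TXN, KEAP1 and the 2 tested probes of SECISBP2. A line joins the pools of 1 array, and black marks give the mean ± SD of 4 pools. The NEFA pools of KEAP1 all lie below its control pools, and for both SECISBP2 probes the gap between control and NEFA is widest on array 4.

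SEPHS1, a relative of the selenophosphate synthetase, was at -0.12, with ratios of -0.40, 0.30, 0.12 and -0.49. SELENBP1, a selenium-binding protein, had the smallest SD of the 41 genes, 0.14. Its ratios of 0.32, 0.31, 0.31 and 0.04 averaged 0.24, and NEFA was higher on 4 of 4 arrays. Its other tested probe stood at -0.09, -0.40, 0.50 and -0.55 with a mean of -0.14, of opposite sign to the first. This second probe was above background in 2 NEFA and 3 control pools and so was tested only through the control pools, where it was higher.

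A single direction on all 4 arrays was found for 1 of 56 member probes on the higher side, 1.79% against 3.56% of all tested probes. On the lower side it was 6 of 56, 10.7% against 4.3%. The higher probe was that of SELENBP1. The lower ones were those of SOD2 and KEAP1, the pair from SECISBP2, and the second probes of TXNL1 and GSTM3. The brightest probes of TXNL1 and GSTM3 did not share that direction, and SOD2 did not keep it in the authors' deposited ratios. These counts were not tested, and the probes share 4 arrays and in part a gene. In 9 of the 41 genes the sign split by dye, against 909 of 4705 named genes. The dye term was larger than the difference between NEFA and control in 26 of the 41 (63.4%), against 2898 of the 4705 (61.6%).

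The symbol pattern also took 6 genes that do not belong to antioxidant defence. SEL1L, SEL1L2 and SEL1L3 are named for a nematode gene, SEL1L being a scaffold for degradation of misfolded proteins, SELE and SELP are adhesion selectins, and MSR1 is a scavenger receptor of macrophages. Of these, SEL1L, MSR1 and SELP were measured, at -0.02, -0.01 and 0.24 (± 0.22 for SELP, unadjusted p = 0.327 in limma). SELP had ratios of -0.05, 0.64, -0.31 and 0.68. The fit without array 4 gave -0.01, with array 3 alone representing its dye orientation. SELE was above background in 0 and 1 of 8 pools for its 2 probes.

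Genes that feed or oppose these enzymes were followed by lists, and 0 of their members passed at an adjusted p of 0.05. Of 14 listed genes of NADPH supply 6 were measured, 2 above and 4 below 0, with a median of -0.01. The smallest p was that of the malic enzyme ME2, at -0.20 ± 0.15. For cystine uptake and glutathione turnover 9 of 20 were measured and 6 were above 0, with a median of 0.08. GGT5, above 0, was above background in 3 NEFA and 2 control pools and so was tested only through the NEFA pools. SLC1A4, below 0, was above background in 2 NEFA and 3 control pools and so was tested only through the control pools. Their signs are no evidence of a difference. CHAC2, which degrades glutathione slowly, stood at 0.30, 0.25, 0.17 and 0.28, giving 0.25 ± 0.13 with NEFA higher on 4 of 4 arrays (unadjusted p = 0.116 in limma). Of the partners and controllers of NFE2L2, 5 of 14 were measured, with a median of -0.01 and BTRC, a ubiquitin ligase subunit, at -0.15 ± 0.16. For selenocysteine insertion 5 of 11 were measured, 2 above and 3 below 0. One of those below, PSTK, was above background in 2 NEFA and 4 control pools and so was tested only through the control pools, where it was higher. EIF4A3, which represses the recoding of some selenoprotein transcripts, had ratios of -0.58, 0.74, -0.57 and -1.14, which gave -0.39 ± 0.25. The iron, metallothionein and peroxisome list had 3 of 17 measured, all below 0, with BLVRA, which reduces biliverdin, at -0.17 ± 0.19. The other 2 tested probes of BLVRA were at 0.18 and 0.14, of opposite sign. The probe at 0.18 was above background in 3 NEFA and 2 control pools and so was tested only through the NEFA pools, where it was higher. Sources of superoxide and peroxide had 3 of 20 measured, all above 0, with DUOX1, an oxidase that makes hydrogen peroxide, at 0.20 ± 0.21.

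Markers of the cells that a pool could hold varied between arrays as well. Of 9 trophectoderm markers 5 were measured, 2 above 0 (TFAP2C at 0.22 and TEAD4 at 0.14) and 3 below (GATA2, GATA3 and ELF5). Their summed intensity ran from 53722 to 65181 in the NEFA pools and from 48035 to 71253 in the control pools. Such a sum mostly follows its brightest probe and is no measure of cell content. Here that probe was TFAP2C, with levels of 15.17 to 15.78, while no other measured marker of this list exceeded 12.94. ELF5 was above background in 0 NEFA and 3 control pools and GATA3 in 2 and 3, so both were tested only through the control pools. Of 11 cumulus and granulosa markers 2 were measured, FST and AMH, with sums of 4213 to 12722 and 5397 to 9747 in the NEFA and control pools. FST had ratios of -0.98, -0.21, 0.15 and -0.82, and AMH had 0.72, -1.46, -0.39 and 1.40, of opposite sign on every array but array 2. Of 9 oocyte markers 5 were measured, with sums of 1750 to 2237 and 1752 to 2142. All 5 were above 0, but ZP3, above background in 4 NEFA and 2 control pools, was tested only through the NEFA pools. Inner cell mass had 1 of 6 markers measured, primitive endoderm 2 of 6, sperm 1 of 8 and blood cells 1 of 7. None of these markers passed at the adjusted threshold, and their part in the values of the antioxidant genes was not tested.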

How the data were processed

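The deposited scanner files hold, per the file headers, raw median intensity for every spot, and for the local background, in the Cy3 and Cy5 channels, without normalisation. RNA was amplified and labelled by a direct chemical method, per the labels' protocols. The submitters' processing notes name limma. The authors' deposited table holds log2 ratios that correlated at 0.967 to 0.995 with log2 Cy5 over Cy3 of the scanner files when the background had been subtracted and loess applied, with slopes of 0.975 to 1.04 and column medians of -0.0233 to -0.0202. Its scale is therefore log2 and its direction Cy5 over Cy3, while its centring is unknown.

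Each array had 45220 spots, 43794 of them probes. Raw intensity had a median of 289 to 436 in Cy3, of 220 to 289 in Cy5, and 38.3% to 49.0% of probes were above background in a channel. Intensities were corrected by normexp (offset 50) and normalised by loess within arrays, control spots at weight 0. No member spot was saturated or marked by the scanner. The filter used 153 negative control spots and left 17145 probes. The ratios went into limma 3.58.1 (R 4.3.3), with a dye intercept and a NEFA term (2 residual and 3.67 prior degrees of freedom), with two-sided p-values adjusted by the Benjamini-Hochberg method over all tested probes. The offset pulls ratios of dim probes toward 0. Levels were scaled between arrays with Aquantile.

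No slide or scan date entered the fit, and dye orientation is the only batch considered. The fit was run on simulated data whose errors were independent between arrays. The ratios of these arrays were correlated, so that run does not show how the fit behaves on them. Probes were named from the platform's table, some of it perhaps outdated. Members, lists and alternatives were chosen with earlier results of these data known. All measured members are named; those with unadjusted p-values are the smallest p of each family and a panel of well-known enzymes. Alternatives were no background correction, offset 10, median centring, no dye term, no filter, the authors' ratios, the mean over a gene's probes, and each array left out.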

Additional observations from a re-analysis of the deposited data

Results flagged for a closer look

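In 11 of 135 groups of 4 values, 1 value stood apart from the other three by more than Dixon's 95% limit, where chance flags about 1 in 20 independent groups. These groups are not independent, since a ratio is the NEFA level minus the control level of the same array. The count was therefore not tested against chance. On array 1 the values that stood apart were the NEFA level of PRDX2 (14.77, against 14.05 to 14.10), the NEFA level of GSTZ1 (7.61), and the NEFA level of KEAP1 (8.22) with its ratio (-0.63). On array 2 they were the ratio of GLRX2 (-0.47) and, for HMOX2, the ratio (-0.44) and the control level (9.26). On array 4 they were the ratio of SECISBP2 (-1.67), the control level of TXNDC12 (9.26), the NEFA level of GCLM (11.41) and the ratio of SELENBP1 (0.038). No value of array 3 stood apart in this way.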

How the results depend on the processing

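Under every alternative 0 member probes passed the adjusted threshold, and the count over all probes was 0 except for 2 with the authors' ratios. Member probes at an unadjusted p under 0.05 numbered 1, against 2 with no background correction, 2 with median centring, 2 with no filter, 0 with no dye term, and 0 to 2 with an array left out. A single direction on all arrays was found for 7 member probes, and for 9 to 19 when only 3 arrays had to share it. The median of the thioredoxin-domain proteins, 0.06, was -0.018 with median centring, 0.087 as the mean over a gene's probes and -0.034 to 0.026 with an array left out, while that of all 41 genes ran from -0.14 to 0.026. Of the genes with p-values, GSR turned to 0.0090 with no background correction and to 0.0049 with the authors' ratios, and PRDX1 and GCLM turned to -0.070 and -0.037 with median centring. The cause was not tested. The sign was kept by 38 of 41 genes with no background correction, 39 with offset 10, 34 with median centring and 37 with the authors' ratios. With 1 array dropped, the fitted value kept its sign in 25 (array 1), 31 (array 2), 34 (array 3) and 26 (array 4). In those fits the array left alone in its dye orientation weighed as much as the others together. A turned sign therefore need not hold for the plain mean of the remaining arrays. With an array left out, the ratio ran for PRDX1 from -0.37 to 0.41, PRDX6 from -0.24 to 0.012, TXNL4B from -0.054 to 0.30, GCLM from -0.046 to 0.14, GSR from -0.26 to 0.22. It ran for GSS from -0.48 to 0.15, GSTZ1 from -0.32 to 0.12, MGST3 from -0.48 to 0.18, HMOX2 from -0.018 to 0.36 and SELP from -0.0079 to 0.49. Among those that kept their sign, it ran for SECISBP2 from -0.95 to -0.29, SOD2 from -0.46 to -0.088, KEAP1 from -0.37 to -0.13, CAT from 0.059 to 0.49, TXN from 0.066 to 0.37. The fit already pairs NEFA with control within each array. No paired analysis was possible because, beyond that pairing, no replicate number is shared between dye orientations, so a further replicate block could not be fitted. With 4 arrays the 95% interval of a member gene had a median half-width of 0.43 on the log2 scale, which limits what could be detected.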
